A study of Mus musculus with 2 samples.

Results

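The annexin, S100 and Ahnak genes were examined in CT26 cells, a colorectal cancer line of BALB/c mouse origin, with and without decitabine (DAC), a nucleoside drug that is built into DNA and blocks the enzymes that methylate it. The genes were chosen by their names alone: every GENCODE M21 symbol of an annexin (Anxa and a number), of an S100 protein (S100a and a number, S100b or S100g), Ahnak or Ahnak2. Of 29 such genes in the annotation, 24 were in the count tables, among 24223 genes in all: 10 annexin, 12 S100 and 2 Ahnak genes. Anxa10, Anxa13, S100a5, S100a9 and S100g were not in these tables and were not analysed here. The DAC library came from cells of the line that received 1 μM DAC in 3 doses 24 h apart and then 24 h of medium without the drug. The control library came from cells kept in parallel without DAC. With 1 library per group there is no replicate check, so no test was run and no p-value is given, and a difference between the libraries may also be a difference between cultures.

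Annexins are proteins that bind acidic phospholipids of membranes when calcium rises, and they take part in membrane repair, vesicle traffic and the anchoring of actin at the membrane. S100 proteins are small calcium sensors with EF hands that mostly act as dimers and dock onto target proteins, annexins among them. The best known complex joins annexin A2 with S100A10, which binds plasminogen activator and plasminogen at the cell surface and holds the giant scaffold protein AHNAK beneath the membrane, and a similar complex joins annexin A1 with S100A11. Many S100a genes of the mouse lie side by side on chromosome 3.

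Total counts were 35163420 for DAC and 34221886 for control. Scaling by edgeR's TMM factors gave CPM, the count relative to the scaled size of the library, with 1 CPM equal to 37.6 counts for DAC and 32.02 for control. The call rule asked for 3 things: 1 CPM or more in either library, a CPM ratio (DAC over control) of 2 or above or of 0.5 or below, and an exact 95% counting interval (Clopper-Pearson) that stays on that side of 1. Parentheses after a ratio hold this interval, which covers counting error and no spread between cultures. Scaling by library totals alone adds 0.19 to every log2 ratio. Of 9 markers of colon epithelium, 8 were in the tables and 4 passed 1 CPM. Their list summed to 75.9 CPM in control and 258 in DAC, a ratio of 3.39. Krt8 rose from 5 to 4445 counts, Krt20 from 593 to 1548 and Krt19 from 12 to 58. These 3 were called higher, where 10.8% of all genes past 1 CPM were. Krt18 had 1797 and 3579 counts without a call. The defining markers Cdh1 (0 in control and 9 in DAC) and Vil1 (0 and 12) were near 0. Cdx2 had 4 and 22 counts, Muc2 had 21 and 6, and Epcam was not in the tables. Of 5 mesenchymal markers, 4 were measured, and their list summed to 9445 CPM in control and 4099 in DAC, 2.30-fold lower. Most of that fall was in Fn1, the fibronectin gene, which went from 210619 to 65467 counts, or 6577 to 1742 CPM. It alone of the list was called. Col1a2 had 52873 and 36561 counts, and Col1a1 2832 and 3236 (a ratio of 0.974). Vim, an intermediate filament gene, had 36138 and 48746 (a ratio of 1.15). The 4 markers of myeloid cells and neutrophils in the tables, of 11 listed, summed to 40 counts in control and 25 in DAC, and Ptprc had 3 and 0. The 3 endothelial markers summed to 11 and 31. Among 7 markers of squamous keratinocytes, 4 were in the tables and summed to 115 and 149 counts, and 2 of 4 glial markers were in the tables and summed to 55 and 31. The part of such cells or of the epithelial genes in the results below was not tested, and in bulk RNA fewer cells that express a gene cannot be told apart from less RNA per cell.

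Of the 24 genes, 20 had at least 1 CPM in either library. Anxa8 rose, 1 of the 20, where 10.8% of all 13545 genes past the same minimum were called higher. S100a3 and Ahnak fell, 2 of the 20, where 5.29% of all genes were called lower. Under the scaling by library totals 4 of the 20 were higher (Anxa4, Anxa8, Anxa11 and S100a1) and 1, S100a3, was lower, where 13.9% and 3.37% of all genes were called. The median log2 ratio of the 20 genes was -0.16, that of all genes -0.018. Under totals the same medians were 0.036 and 0.18, so the sign of the family's median depends on the scaling. The gap to all genes stayed near -0.14 because totals add the same amount to every log2 ratio. It was -0.16 when ratios were centred on genes of like GC content, -0.11 with a CPM minimum of 5 and -0.049 without a minimum.

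Since DNA methylation is placed on the cytosine of CG dinucleotides, the RefSeq promoter windows (GRCm38.p6, 250 bases before the start to 50 bases after it) are shown for the 3 called genes and for 4 others described below. Each is written 5′ to 3′ on the strand of its gene, with each CG in capitals. For S100a3 and Anxa4, which have several annotated starts, the window richest in CG is shown.
S100a3, chr3:90599964-90600263, plus strand: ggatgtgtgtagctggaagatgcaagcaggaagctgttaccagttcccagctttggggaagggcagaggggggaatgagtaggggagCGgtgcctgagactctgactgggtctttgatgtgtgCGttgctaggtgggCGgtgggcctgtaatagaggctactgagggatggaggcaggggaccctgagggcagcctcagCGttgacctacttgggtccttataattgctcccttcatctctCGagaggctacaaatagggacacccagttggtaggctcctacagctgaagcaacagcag
Anxa8, chr14:34085729-34086028, plus strand: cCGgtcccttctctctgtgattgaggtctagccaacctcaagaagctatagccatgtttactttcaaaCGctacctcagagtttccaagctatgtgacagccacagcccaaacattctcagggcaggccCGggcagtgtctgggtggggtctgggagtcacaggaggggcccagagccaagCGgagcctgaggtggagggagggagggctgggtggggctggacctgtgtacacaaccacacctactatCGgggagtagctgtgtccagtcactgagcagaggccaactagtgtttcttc
Ahnak, chr19:8989034-8989333, plus strand: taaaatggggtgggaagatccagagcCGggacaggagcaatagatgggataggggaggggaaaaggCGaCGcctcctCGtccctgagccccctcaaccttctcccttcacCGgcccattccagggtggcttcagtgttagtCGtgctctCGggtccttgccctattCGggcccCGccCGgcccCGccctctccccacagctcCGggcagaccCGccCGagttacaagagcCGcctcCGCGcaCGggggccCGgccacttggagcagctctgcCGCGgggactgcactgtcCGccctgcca
Anxa2, chr9:69453433-69453732, plus strand: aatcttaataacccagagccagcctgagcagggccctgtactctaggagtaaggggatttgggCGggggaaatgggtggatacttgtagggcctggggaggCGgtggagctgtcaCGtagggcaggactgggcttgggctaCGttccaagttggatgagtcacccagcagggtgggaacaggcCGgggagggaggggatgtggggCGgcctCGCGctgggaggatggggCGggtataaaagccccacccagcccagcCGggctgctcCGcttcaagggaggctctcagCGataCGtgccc
S100a11, chr3:93520246-93520545, plus strand: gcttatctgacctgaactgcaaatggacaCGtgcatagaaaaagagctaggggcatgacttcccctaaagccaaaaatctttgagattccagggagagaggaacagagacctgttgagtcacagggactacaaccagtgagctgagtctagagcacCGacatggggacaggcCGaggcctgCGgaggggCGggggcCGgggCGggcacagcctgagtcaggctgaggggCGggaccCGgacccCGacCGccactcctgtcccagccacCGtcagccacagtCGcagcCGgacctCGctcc
Anxa4, chr6:86793535-86793834, minus strand: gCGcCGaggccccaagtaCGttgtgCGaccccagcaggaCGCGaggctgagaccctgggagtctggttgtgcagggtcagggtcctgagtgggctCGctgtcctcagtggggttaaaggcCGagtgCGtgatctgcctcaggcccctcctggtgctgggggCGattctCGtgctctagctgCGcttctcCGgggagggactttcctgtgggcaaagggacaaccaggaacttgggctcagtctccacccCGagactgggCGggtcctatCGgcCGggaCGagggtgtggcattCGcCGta
S100a1, chr3:90514281-90514580, minus strand: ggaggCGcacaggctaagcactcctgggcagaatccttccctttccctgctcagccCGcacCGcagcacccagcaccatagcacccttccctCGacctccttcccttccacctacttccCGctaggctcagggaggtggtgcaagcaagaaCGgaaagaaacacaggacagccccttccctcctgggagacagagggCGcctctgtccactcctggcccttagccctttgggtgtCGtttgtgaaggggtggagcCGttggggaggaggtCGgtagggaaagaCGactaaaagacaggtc
The windows of S100a3 and Anxa8 hold 5 CG each and that of Ahnak holds 22, against a median of 7 over all 32851 windows of this length in the table. Of all windows, 62.0% hold at least 5 CG and 23.1% at least 22. The other 3 S100a3 windows hold 0, 2 and 3. Among the 4 genes shown beside them, Anxa4 has 20 CG (3 at its other start), S100a11 15, Anxa2 13 and S100a1 11. Of the genes not shown, Anxa11 has 25. A start of Anxa9 has 36, the most of the family, and its other start has 3. Anxa7 has 19 and 4 at its starts, Anxa5 has 16, Anxa1 has 3 and S100a4 has 2. A window was in the table for 19 of the 24 genes, with S100a10 among the 5 without one. The letters TGANTCA, the core of sites for AP-1 factors, read the same on both strands and do not overlap CG. They occur at 2 places in the S100a11 window, at 1 in that of Anxa2 and at 1 in that of a S100a16 start, and 7.81% of all windows hold them. These are descriptions of sequence, and methylation was not analysed here.

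Within each library, levels were compared between genes as CPM per kb of merged exons. S100a11 was at the top in both libraries, with 1917 CPM per kb in control and 1159 in DAC. It was followed in both by S100a4 (981 and 893), Anxa2 (552 and 398) and S100a6 (419.6 and 371). These 4 genes held 75.2% of the family's summed level per kb in control and 73.3% in DAC. S100a10 preceded Anxa5 in control (381 against 334) and followed it in DAC (208 against 338), an exchange that depends on the length used: by the longest transcript S100a10 preceded Anxa5 in both libraries (674 against 342 in control and 368 against 347 in DAC). Ahnak, with the most counts of the family in control, ranked 8 there at 148 CPM per kb of its 19938 exonic bases. At the lower end of the measured genes, S100a14 had 0.524 CPM per kb in control and 0.632 in DAC, and S100a3 1.495 and 0.324. Ranks 1 to 4 were the same when the longest transcript was used as the length.

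**Figure D1:**
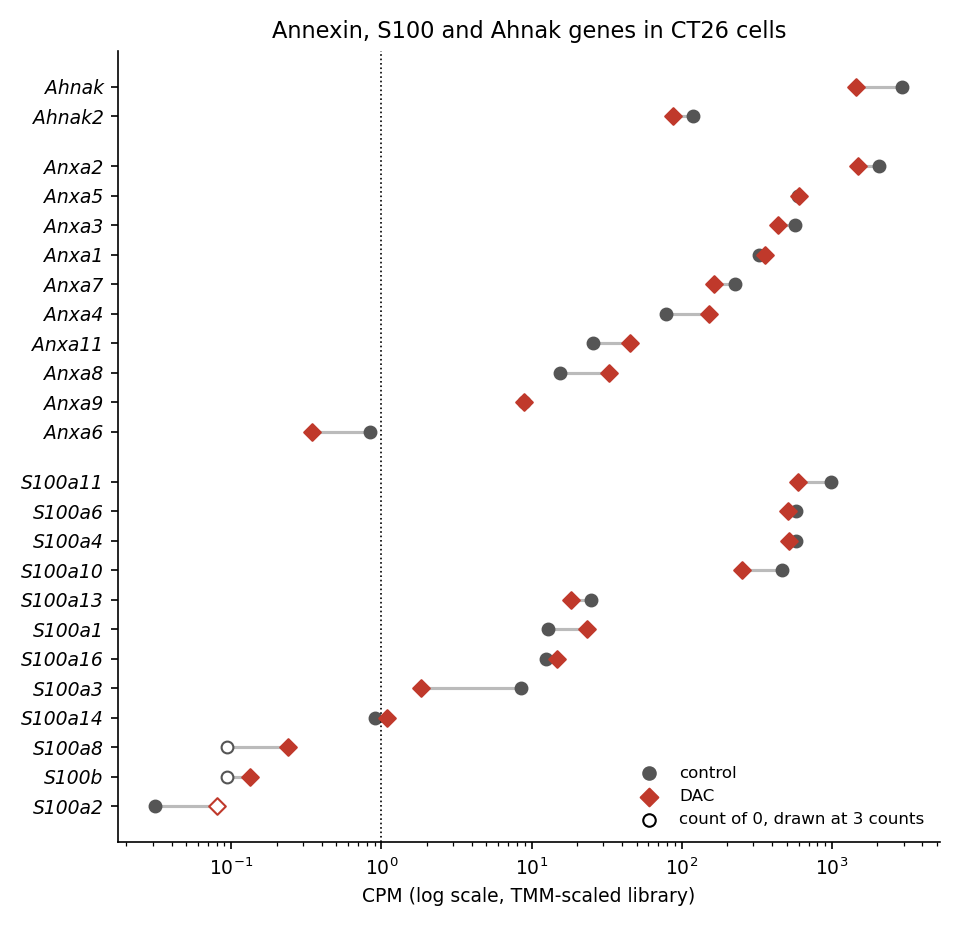
CPM (log axis) of the 24 genes in the control library (grey circles) and the DAC library (red diamonds), grouped as Ahnak, annexin and S100 genes, with open symbols for a count of 0 drawn at 3 counts and a dotted line at 1 CPM. S100a3 shows the widest gap among the genes past 1 CPM (8.46 in control and 1.84 in DAC), while Anxa5 and Anxa9 have nearly coinciding symbols.

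Ahnak encodes a giant scaffold protein of the cell cortex that binds the annexin A2 and S100A10 complex, and lies on chromosome 19 from 8989284 to 9076914 (GRCm38, plus strand). It had 94453 counts in control and 54585 in DAC, or 2949 and 1453 CPM. The DAC library was 2.03-fold lower (2.01 to 2.05), and 5.01% of all measured genes had a lower ratio. The call rests on the scaling: the log2 ratio was -1.02, it was -0.83 by library totals, just short of 2-fold (-0.999884) by DESeq2 size factors and -0.93 when ratios were centred on genes of like GC content, and in those 3 settings the gene was not called. Ahnak2, a smaller relative, had 3786 counts in control and 3292 in DAC, a ratio of 0.741 (0.707 to 0.777). The level of Ahnak per kb of merged exons was 17.7 times that of Ahnak2 in control and 11.8 times in DAC, and by the longest transcript it was 7.502 and 4.99 times. The ratio of these ratios, which neither the length nor the scaling of the libraries affects, was 0.665 (0.633 to 0.697). Together the Ahnak genes summed to 3068 CPM in control and 1540 in DAC, 1.99-fold lower, where the summed CPM of all genes was 1.14-fold lower. That value for all genes is the ratio of the TMM factors, so it is set by the scaling and does not measure a fall in RNA.

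Higher calls were rarer among genes with more counts. At a mean of at least 100 CPM over the libraries, 12 of the family and 2425 of all genes remained. None of the 12 was called higher, where 1.61% of such genes were, and Ahnak alone was called lower, where 4.66% were. The median log2 ratio was -0.40 over the 12 genes and -0.22 over all 2425.

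Anxa2 and S100a10 encode the partners of the plasminogen-binding complex. Anxa2 (chromosome 9, 69453620 to 69491795, plus strand) had 65928 counts in control and 55782 in DAC, 2059 and 1484 CPM, a ratio of 0.721 (0.713 to 0.729). S100a10 (chromosome 3, 93555080 to 93564643, plus strand), which encodes an S100 protein that has lost calcium binding, had 14794 counts in control and 9484 in DAC, 462 and 252 CPM. Its level was 1.83-fold lower in DAC (1.78 to 1.88), which misses the 2-fold rule. Both partners had intervals below 1, and S100a10 was further down: its level per kb was 0.691 of that of Anxa2 in control and 0.523 in DAC, with a ratio of ratios of 0.758 (0.737 to 0.779). Relative to Ahnak, Anxa2 stood higher in DAC, with a level per kb 3.73 times that of Ahnak in control and 5.46 times in DAC, a ratio of ratios of 1.46 (1.44 to 1.49).

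S100a11 and Anxa1 encode the partners of the other complex, and annexin A1 is also known as a mediator that dampens inflammation. S100a11 (chromosome 3, 93520488 to 93526287, plus strand) had 31365 counts in control and 22256 in DAC, 979 and 592 CPM, 1.65-fold lower (1.63 to 1.68). Anxa1 had 10419 counts in control and 13375 in DAC, 325 and 356 CPM, a ratio of 1.09 (1.07 to 1.12). The intervals of the partners lay on opposite sides of 1, and the level of S100a11 per kb of merged exons was 17.1 times that of Anxa1 in control and 9.48 times in DAC (9.86 and 5.45 times by the longest transcript), a ratio of ratios of 0.553 (0.536 to 0.570). Of the 50-base stretches of the S100a11 transcript, 41.1% occur in other annotated genes. The processed pseudogenes Gm12854 (393 counts in control and 322 in DAC) and Gm7665 (407 and 420) share such stretches, so its count is less certain than its interval shows.

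**Figure D2:**
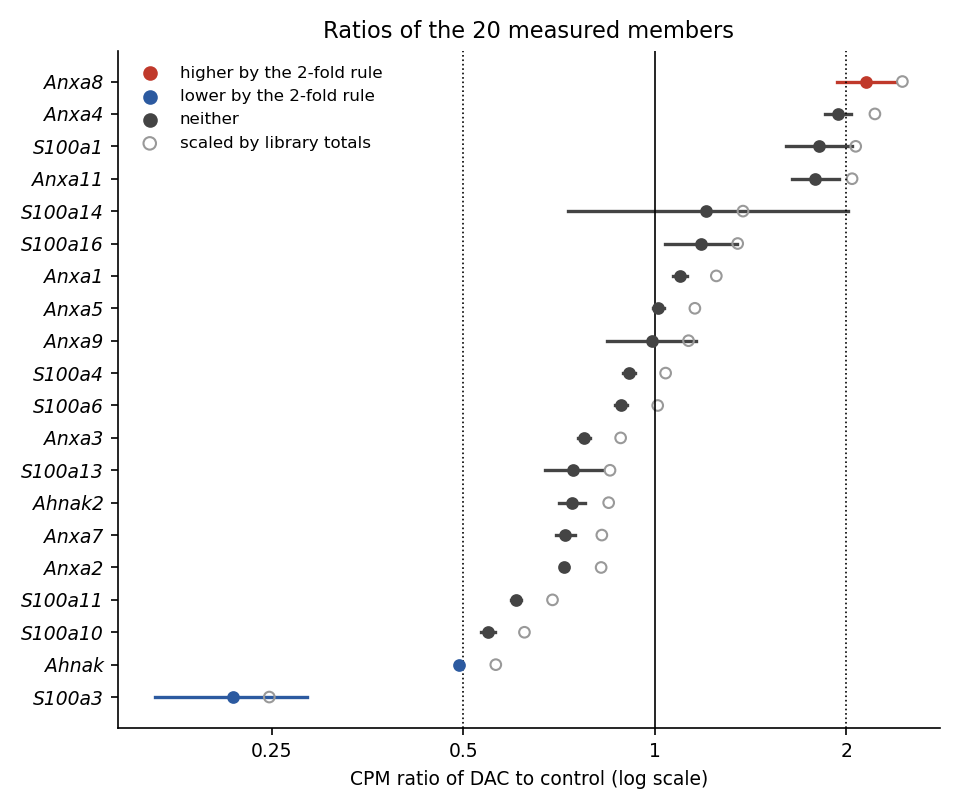
CPM ratio of DAC to control (log axis) for the 20 measured genes, with the exact 95% counting interval as a bar, filled points by TMM scaling and open points by library totals. Anxa8 is past the dotted line at 2 and Ahnak and S100a3 are past that at 0.5, Ahnak by little, and under library totals Anxa4, S100a1 and Anxa11 also pass 2.

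The other annexins fell into 3 sets by ratio. Anxa8, an annexin with anticoagulant activity in vitro (chromosome 14, 34085981 to 34100571, plus strand), had 493 counts in control and 1241 in DAC, or 15.4 and 33.03 CPM. It rose 2.15-fold (1.93 to 2.39), and 90.4% of all measured genes had a lower ratio. The lower end of its interval was under 2. The call held under every alternative but a 4-fold rule and the demand that the whole interval lie beyond 2-fold.

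Anxa4, found in secretory epithelia (chromosome 6, 86736840 to 86793584, minus strand), had 2503 counts in control and 5704 in DAC, 78.2 and 152 CPM, a ratio of 1.94 (1.85 to 2.04). Anxa11, which tethers RNA granules to lysosomes in neurons, had 815 and 1710 counts, 25.4 and 45.5 CPM, a ratio of 1.79 (1.64 to 1.95). Neither passed the 2-fold rule. Both did under library totals, and Anxa4 also did with centring on GC content. For Anxa11, 25.3% of the 50-base stretches occur in other annotated genes, among them the unprocessed pseudogenes Gm2260 (206 counts in control and 400 in DAC) and Gm2274 (97 and 193), whose ratios of 1.65 and 1.70 were close to its own.

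A second set sat near equal levels. Anxa5, whose protein binds phosphatidylserine and serves as a probe of dying cells, had 18979 counts in control and 22544 in DAC, a ratio of 1.01 (0.993 to 1.03). Anxa9, an annexin with altered calcium-binding sites, had 286 and 332 counts, a ratio of 0.989 (0.842 to 1.16). Both intervals spanned 1, and the sign of both log2 ratios turned with the scaling or centring. Exons of Anxa9 overlap those of Mindy1 on the opposite strand by 71 bases, and the sources used here do not say whether counting used strand.

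The third set, with Anxa2 described above, lay below 1 without a call. Anxa3 had 18095 counts in control and 16430 in DAC, a ratio of 0.774 (0.758 to 0.790). Anxa7, known as synexin for its action on chromaffin granules, had 7230 and 6133, a ratio of 0.723 (0.699 to 0.748). Anxa6, an annexin with a duplicated core, was below 1 CPM in both libraries with 27 counts in control and 13 in DAC. Over the 9 measured annexins, 1 was called higher and none lower, where 10.8% and 5.29% of all genes were, and the median log2 ratio was 0.018. Their CPM summed to 3896 in control and 3280 in DAC over all 10 genes. This was 1.19-fold lower, where the scaling alone makes the summed CPM of all genes 1.14-fold lower.

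Among the S100 genes the outlying value was S100a3, whose protein is known from the cuticle of hair (chromosome 3, 90560578 to 90602702, plus strand). It had 271 counts in control and 69 in DAC, or 8.46 and 1.84 CPM. It fell 4.61-fold (3.53 to 6.09), and 0.650% of all measured genes had a lower ratio. The gene was called lower under all 12 alternatives. Its annotated span encloses S100a2 and holds 5660 exonic bases, and 3.46% of its 50-base stretches occur in other genes. Of its exonic bases, 144 (2.54%) overlap the gene model Gm42674 on the same strand, which was not in the tables. S100a2, within that span, had 1 count in control and 0 in DAC.

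S100a4 and S100a6 follow S100a3 on the chromosome. S100a4 encodes metastasin, which binds nonmuscle myosin, and had 18348 counts in control and 19606 in DAC, 573 and 522 CPM, a ratio of 0.911 (0.892 to 0.929). S100a6 encodes calcyclin and had 18370 and 19074 counts, 574 and 508 CPM, a ratio of 0.885 (0.867 to 0.903). By library totals both log2 ratios turned to the other side of 0 (0.057 for S100a4 and 0.015 for S100a6). The level of S100a6 per kb was 0.428 of that of S100a4 in control and 0.416 in DAC, a ratio of ratios of 0.972 (0.944 to 0.99996). Of the 50-base stretches of S100a4, 56.3% occur in the gene model Gm42674, which overlaps it on the same strand and was not in the tables used here.

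S100a1, a calcium sensor of striated muscle, and S100a13, which takes part in the release of FGF1, start in opposite directions with 42 bases between the genes. S100a1 (90511034 to 90514392, minus strand) had 413 counts in control and 878 in DAC, 12.9 and 23.4 CPM, a ratio of 1.81 (1.61 to 2.04). S100a13 (90514435 to 90524581, plus strand) had 792 and 692 counts, 24.7 and 18.4 CPM, a ratio of 0.745 (0.671 to 0.826). The neighbors lay on opposite sides of 1 although their promoter windows share 204 bases. The level of S100a1 per kb was 0.537 of that of S100a13 in control and 1.31 times it in DAC, a ratio of ratios of 2.43 (2.08 to 2.85).

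The remaining S100 genes had low counts or small differences. S100a16 had 398 counts in control and 552 in DAC, a ratio of 1.18 (1.04 to 1.35). S100a14, an epithelial family member, had 29 and 41, a ratio of 1.20 (0.731 to 2.01) whose interval spans 1. S100a8, a neutrophil alarmin that pairs with S100A9, had 0 counts in control and 9 in DAC, and S100b, a marker of glia, had 0 and 5. S100a8 and S100b were thus below 1 CPM, and a count of 0 allows up to 3 counts. Over the 9 measured S100 genes, none was called higher and 1 lower, beside the same 10.8% and 5.29%, and the median log2 ratio was -0.18. The CPM of all 12 summed to 2647 in control and 1934 in DAC, 1.37-fold lower, where the scaling alone makes that of all genes 1.14-fold lower.

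**Figure D3:**
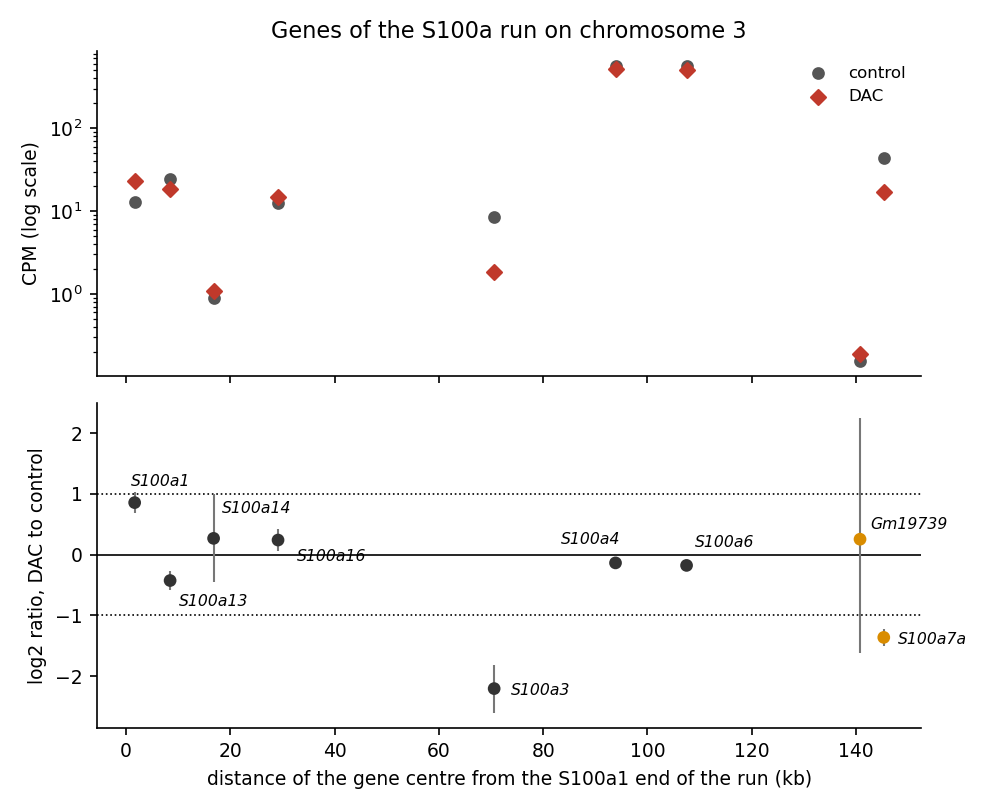
CPM (upper panel, log axis) and log2 ratio of DAC to control with its exact 95% counting interval (lower panel) of genes in the run from S100a1 on chromosome 3, against the distance of each gene's centre from the end at S100a1 in kb. Orange points are genes outside the family, genes with a count of 0 in a library are left out, and S100a3 lies at -2.20 between S100a16 (0.24) and S100a4 (-0.14).

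The run from S100a1 to S100a8 covers 159 kb (90511034 to 90670035), and ratios in it did not follow position. From S100a1 to S100a6 the log2 ratios were 0.86, -0.43, 0.27, 0.24, -2.20, -0.14 and -0.18, leaving out S100a2. Another 3 genes of the tables lie inside it, of which S100a7a alone passed 1 CPM. S100a7a, an S100 gene outside the naming rule that is related to human psoriasin, had 1406 counts in control and 642 in DAC and fell 2.57-fold (2.34 to 2.83). The wider stretch up to S100a10 holds 19 other genes of the tables, of which 7 were measured, 1 rose (Crct1, with 28 and 106 counts, a ratio of 3.23) and 1 fell (S100a7a). Crct1 lies in the cluster of epidermal differentiation genes.

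At a lower fold the family divided evenly. By a 1.5-fold rule, Anxa4, Anxa8, Anxa11 and S100a1 were higher, 4 of 20, where 19.3% of all genes were. Ahnak, S100a3, S100a10 and S100a11 were lower, 4 of 20, where 15.2% of all genes were. By the counting interval alone, 6 of the 20 lay above 1 and 11 below 1, where 37.3% and 40.3% of all genes did, and those of Anxa5, Anxa9 and S100a14 spanned 1. All 24 genes together had 307795 counts in control and 253807 in DAC, 0.899% and 0.722% of all counts. Their summed CPM was 1.42-fold lower in DAC, with Ahnak, Anxa2 and S100a11 as the largest differences in CPM. By the same scaling the summed CPM of all genes was 1.14-fold lower, a value set by the TMM factors alone. That of all genes with a mean of at least 100 CPM was 1.20-fold lower.

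Partners and relatives were read from 5 lists, beside the 10.8% of all genes called higher and the 5.29% called lower. Of 11 relatives of S100 genes outside the rule, 2 were in the tables, and besides S100a7a, which fell, S100pbp had 763 counts in control and 658 in DAC. Of 24 genes of membrane repair, 23 were measured, 2 rose, 3 fell and the median log2 ratio was -0.0028. By library totals 5 were higher (also Esyt1, Trim72 and Fer1l4) and 2 lower, where 13.9% and 3.37% of all genes were. That scaling moved all genes the same way, so the balance of the list depends on it. Dysf, which encodes the repair protein dysferlin, rose 3.00-fold (2.24 to 4.08) from 59 to 208 counts, and Chmp3, an ESCRT-III subunit, rose 2.18-fold (2.05 to 2.31) from 1467 to 3749. The ferlin genes Fer1l5 and Fer1l6 fell, from 219 to 105 and from 4248 to 2142 counts, with ratios of 0.409 and 0.430. Cav1, which encodes the coat protein of caveolae, fell 2.07-fold (1.98 to 2.16) from 5475 to 3105 counts, a call that ended by library totals and with centring on GC content. Myof, a ferlin of the plasma membrane, had 22481 counts in control and 24270 in DAC, a ratio of 0.920.

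Of 24 intracellular partners and targets of the family's proteins, 19 were in the tables and 17 were measured. Cacnb3, a calcium channel subunit that binds AHNAK, rose 4.03-fold (3.71 to 4.39) from 671 to 3177 counts, none fell, and the median log2 ratio was 0.096. By library totals Cacnb1, and with centring on GC content Cacnb2, which encode other beta subunits of calcium channels, were also called higher. Myh9, the heavy chain of nonmuscle myosin IIA that S100A4 binds, had 61986 counts in control and 46131 in DAC, a ratio of 0.634 (0.627 to 0.642) that was not called.

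Of 17 receptors and genes of plasmin generation, 14 were in the tables and 10 were measured, of which 3 rose and none fell. Plau, the urokinase plasminogen activator, had 0 counts in control and 75 in DAC, a ratio of 21.3 when the 0 is set at 3 counts. The lower end of its counting interval, taken from the counts of 0 and 75 themselves, was 16.9. Sdc1, a cell-surface proteoglycan, rose 2.78-fold (2.498 to 3.11) from 436 to 1424 counts. Ager, the receptor RAGE to which several S100 proteins bind, rose 2.01-fold (1.40 to 2.91) from 45 to 106 counts, just past the rule, and was not past it with centring on GC content. With a CPM minimum of 5, or a demand for over 100 counts of difference, Sdc1 alone of the 3 was called. Plaur, the urokinase receptor, had 12096 counts in control and 9108 in DAC, a ratio of 0.642 (0.624 to 0.659) without a call. Over the 10 genes the median log2 ratio was 0.22.

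Of 27 other calcium sensors with EF hands, 23 were in the tables and 18 were measured. Hpcal1, a neuronal calcium sensor, rose 2.06-fold (1.81 to 2.36) from 310 to 751 counts and was not past the rule with centring on GC content, and none fell. By library totals Efhd2, a calcium-binding protein of the actin cortex, was also called higher. Calu, a calcium-binding protein of the secretory pathway, had 26910 counts in control and 23106 in DAC. The median log2 ratio was 0.11.

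**Figure D4:**
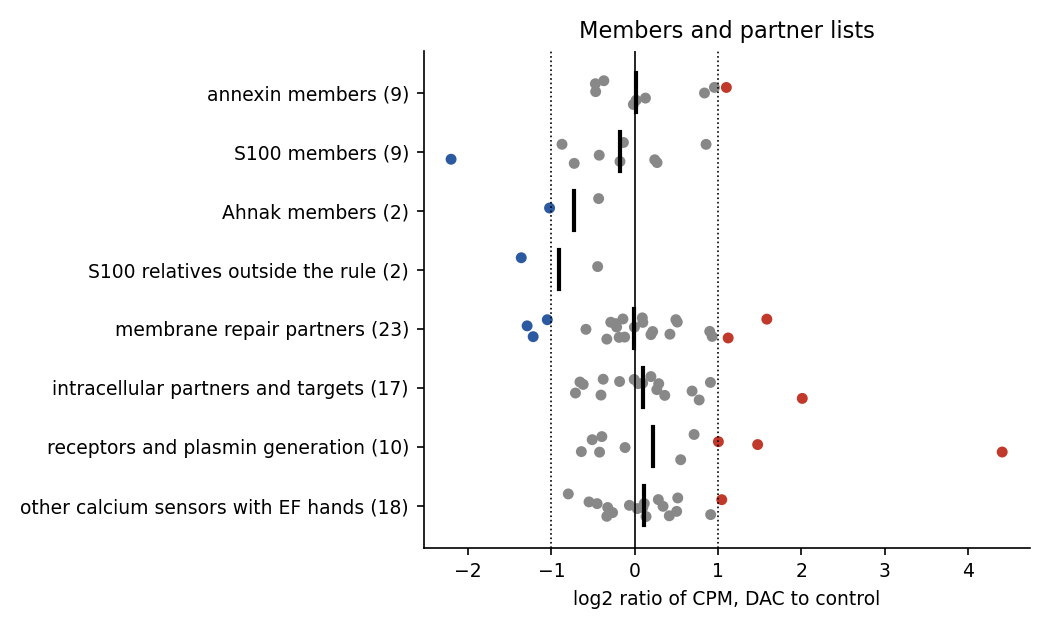
Log2 ratio of DAC to control for each measured gene of the family's 3 groups and of the 5 lists, with the number of measured genes in parentheses, a black bar at each median, dotted lines at 2-fold, and red and blue points for genes called higher and lower. The family's called genes are Anxa8, S100a3 and Ahnak, and the point at 4.41 is Plau, drawn with its control count of 0 set at 3.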

How the data were processed

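RNA from CT26 cells was sequenced after poly-A selection, with 1 library for DAC and 1 for control. The authors deposited whole-number counts per Ensembl gene without normalization. The build mm10 and the tools STAR 2.5.3a and StringTie 1.3.1c, beside Trim Galore, FastQC, Cufflinks and DESeq, stand in the notes of the submitters on processing. The methods of the paper instead give CASAVA, TopHat and Bowtie, with FPKM as the unit. The sources used here do not give the route behind the counts or its use of strand, so reads of genes with near-identical copies may be placed in another way than assumed.

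Symbols and coordinates came from GENCODE M21 (GRCm38), which matched 24122 gene identifiers and missed 101. TMM factors (1.07 for DAC and 0.936 for control) came from edgeR 4.0.16 in R 4.3.3 over all genes, without a test. Python 3.11.15 with scipy 1.17.1 (exact intervals), pandas 2.3.3, numpy 2.4.6 and matplotlib 3.10.9 (plots) did the rest. A count of 0 was set at 3 counts, as was its partner where that was 3 or less. No p-value was computed. In simulated libraries the rule was tested for recovery of known changes. These libraries held counting error alone and were scaled by library totals, so the check says nothing on spread between cultures. Shared sequence was counted as 50-base stretches of the longest transcript found in GENCODE transcripts of other genes.

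The genes and lists were chosen with earlier results of these data known. All genes of the family were named. From each list and from the genes between the S100a genes of chromosome 3, up to 4 called genes, by the distance of the interval from 1, and the gene with the most counts were named. The marker genes, which the rule does not take in, were added, as were Fer1l5, S100pbp, Esyt1, Trim72, Fer1l4, Cacnb1, Cacnb2 and Efhd2 after their values were seen. There were 12 alternatives: size factors of DESeq2 1.42.0, scaling by library totals or by upper quartiles, centring on 20 bins of GC content, no filter, a CPM minimum of 5, folds of 1.5 and 4, the whole interval past 2-fold, over 100 counts of difference, counts divided by 3, and the deeper library thinned. Levels per kb were also computed by the longest transcript.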

Additional observations from a re-analysis of the deposited data

How the results depend on the processing

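Of the family, 1 gene was called higher and 2 lower. The number called higher was 4 by library totals, 2 with centring on GC content, 2 without a filter, 4 at 1.5-fold, 0 at 4-fold and 0 with an interval beyond 2-fold. Among all genes 1468 of 13545 were called higher by the main rule. In the same order, the alternatives called 1889 of 13571, 1387 of 13518, 2672 of 24223, and 2612, 579 and 977 of 13545. The number called lower was 1 by library totals, 1 by DESeq2 size factors, 1 with centring on GC content, 4 at 1.5-fold and 1 at 4-fold. Among all genes 716 of 13545 were called lower by the main rule. In the same order, these alternatives called 458 of 13571, 679 of 13545, 597 of 13518, and 2059 and 112 of 13545. The genes added without a filter were S100a8, higher, and Anxa6, lower, which have few counts. The median log2 ratio of -0.16 turned to 0.036 by library totals, which add a constant to every ratio. The 5 lists, with 2, 23, 17, 10 and 18 measured genes, together held 11 called genes. Of all genes, 10.8% were called higher and 5.29% lower by the same rule. The lists held 23 called genes at 1.5-fold, 2 at 4-fold and 7 with an interval beyond 2-fold. In the same order, the calls among all 13545 genes were 2612 higher and 2059 lower, 579 and 112, and 977 and 403. The counts called among all genes rose and fell in the same way. Signs also changed for Anxa5 with centring on GC content, for Anxa9 by library totals (0.18) and DESeq2 size factors (0.0064), and for S100a4 (0.057) and S100a6 (0.015) by library totals. S100a3 was called lower in every setting. No library could be left out, since each group has 1. For the same reason no paired analysis was possible. Genes below 32.02 counts in control and 37.6 in DAC fall under the minimum, and no call was made for them at this depth.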

Other observations

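Genes beside the run from S100a1 to S100a8 were read within 100 kb of its ends, a stretch chosen after values were seen. Npr1, which encodes a receptor of natriuretic peptides and lies 45.2 kb from the run on the side of S100a1, had 5 counts in control and 179 in DAC, a ratio of 30.5 (12.8 to 95.1). Its neighbors did not pass the 2-fold rule: Ints3, an Integrator subunit, had 2480 and 5036 counts (1.73), Ilf2 4206 and 3349 (0.679), Snapin 1004 and 803 (0.682), and Chtop, 1.54 kb from the run, 3554 and 3541 (0.849). Pglyrp4, a peptidoglycan recognition gene on the other side, had 4 and 17 counts, below the minimum.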
